A study of Rattus norvegicus with 12 samples.

Results

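In neonatal rat ventricular myocytes (NRVM), 137 of the 15920 genes in the RNA-seq table were higher with phenylephrine (PE) than at baseline, lower with PE and the kinase inhibitor THZ1 than with PE, and also lower with THZ1 than at baseline in cells that received no PE. The genes were chosen by group means of normalized counts, which are gene read counts divided by a scaling factor of each library. A member had a mean of at least 50 over the 12 libraries, a PE/baseline ratio of at least 2, a PE + THZ1/PE ratio of at most 0.5 and a THZ1 alone/baseline ratio of at most 0.75. Of the 12148 genes with a mean of at least 50, 233 (1.92%) met the first ratio, 160 of those met the second, and 139 of those met the third, from which 2 genes were left out by the selection rule. These ratios chose the genes from all 12 libraries, so the values of the members in the 4 groups are a description. Counts of members called by a fit across all genes are given beside the share of all genes called, and they are not a test of the members.

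PE activates α1-adrenergic receptors, which couple through Gq to calcium and protein kinase C signalling, and in cultured cardiomyocytes it induces enlargement of the cell together with the fetal gene programme. THZ1 binds covalently to cyclin-dependent kinase 7 and, at higher exposure, to its relatives 12 and 13. These kinases phosphorylate the C-terminal domain of RNA polymerase II and take part in the initiation, pausing and elongation of transcription.

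The cells were ventricular myocytes from Sprague Dawley pups of postnatal day 2 to 3, pre-plated and exposed to BrdU to reduce nonmyocytes, and kept in serum-free medium before stimulation. The 4 groups of 3 libraries each were baseline (vehicle), PE at 100 µM, PE at 100 µM with THZ1 at 10 nM, and THZ1 alone at 10 nM. By the study's methods the inhibitor was added before PE, so PE + THZ1 measures a rise with THZ1 already present and not the loss of an established one. The sample labels give 48 h of treatment, but 24 h is written in 6 column names, which belong to the libraries treated with PE. The labels do not say whether the 3 libraries of a group came from separate cultures, so the spread between them may be technical, and with bulk RNA fewer cells of a type and less RNA per cell cannot be told apart.

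Each library held 30458862 to 45885754 reads counted on genes. The genes carry Ensembl identifiers without symbols, none of which could be paired with a name in the annotation used here. Gene names, pathways, cell type markers and gene lengths were therefore not analysed, the labelled cell type was not checked against its markers, and a normalized count, which also grows with transcript length, ranks genes by reads and not by mRNA level. Baseline replicate 2 and PE + THZ1 replicate 3 stood apart for these genes. The first was the highest of the 3 baseline libraries for 108 of the 137 members, against 39.4% of all genes tested, and the median coefficient of variation of the members at baseline was 13.7%, against 7.07% for all genes with a mean of at least 50. PE + THZ1 replicate 3 was the highest of its group for 100 members (38.5% of the genes tested), where the median coefficient of variation was 9.22% against 4.12%, and PE replicate 3 was the highest of its group for 83 (31.2%). Leaving baseline replicate 2 out changed the median PE/baseline ratio of the members from 2.49 to 2.70 and the median THZ1 alone/baseline ratio from 0.467 to 0.492. Leaving PE + THZ1 replicate 3 out changed the median PE + THZ1/PE ratio from 0.251 to 0.245.

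PE raised the members by 2.49-fold in the median, with quartiles of 2.20 and 3.26 and a range of 2.0 to 8.09. The rise was between 2-fold and 3-fold for 92 genes, between 3-fold and 5-fold for 37 and 5-fold or more for 8. In every member each PE library lay above each baseline library, a separation that 29.6% of all 15222 genes tested also showed in this direction. All 137 were also called higher by limma at an adjusted p under 0.05, against 28.3% of the genes tested. The choice of genes used this contrast, so nothing is read from either count, and the same holds for the counts given below.

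With THZ1 added to PE the members stood at 0.251 of their PE level in the median (quartiles 0.179 and 0.341, range 0.037 to 0.49). There were 70 genes above a ratio of 0.25, 56 between 0.1 and 0.25, and 11 at 0.1 or less. Each PE library lay above each PE + THZ1 library in all 137 members, as for 33.5% of the genes tested, and limma called all 137 lower, against 29.5% of the genes tested. Without PE, THZ1 left the members at 0.467 of baseline in the median (quartiles 0.331 and 0.58, range 0.0799 to 0.742). The ratio was above 0.5 in 60 members, between 0.25 and 0.5 in another 60 and at or below 0.25 in 17. The baseline and THZ1 alone libraries did not overlap in 135 members (26.6% of the genes tested), and limma called 136 lower (24.6%).

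**Figure D1:**
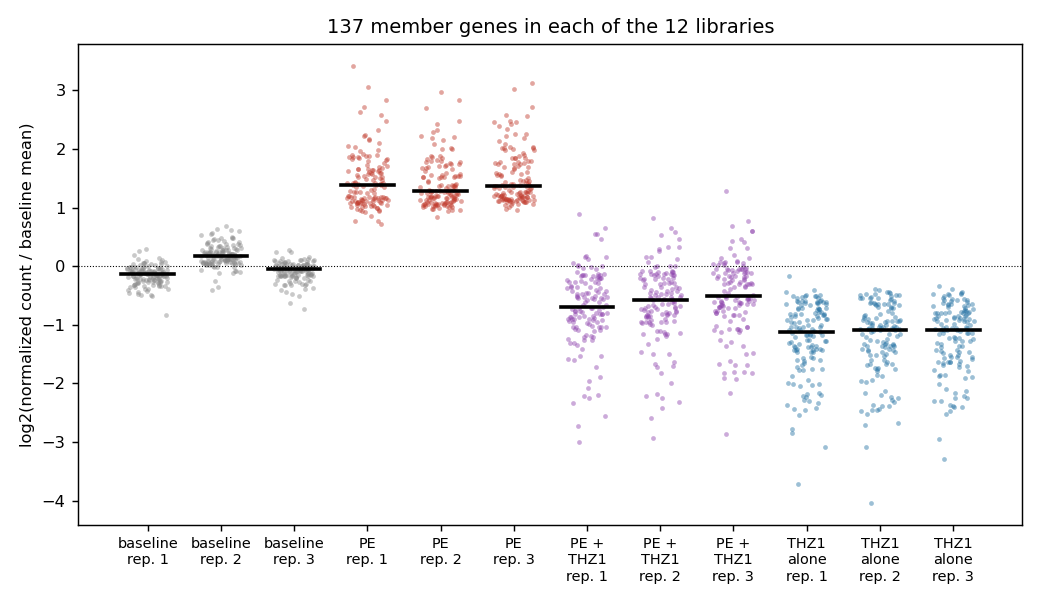
Each point is one of the 137 members in one library, as the log2 ratio of its normalized count to the mean of the 3 baseline libraries, and the black bars are medians. The medians were 1.39, 1.29 and 1.37 in the PE libraries, between -0.68 and -0.51 in the PE + THZ1 libraries and between -1.11 and -1.08 with THZ1 alone, while baseline replicate 2 lay at 0.18 and the other baseline libraries at -0.13 and -0.05.

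The members' share of the reads counted on genes more than doubled with PE and lay below baseline in both THZ1 groups; a gene's share also depends on the length of its transcript. It was 2.07%, 2.81% and 2.16% in the baseline libraries, 5.58%, 5.36% and 5.66% with PE, 1.52%, 1.61% and 1.70% with PE + THZ1, and 1.16%, 1.17% and 1.19% with THZ1 alone. No library of one group overlapped another group. The means were 2.35% ± 0.404, 5.53% ± 0.155, 1.61% ± 0.09 and 1.17% ± 0.0153 (SD, n = 3 each). The summed normalized counts of the members gave the same order, with 0.888 ± 0.109 M at baseline, 2.23 ± 0.0643 M with PE, 0.544 ± 0.0403 M with PE + THZ1 and 0.402 ± 0.00513 M with THZ1 alone (SD, n = 3 each). The rule set much of this order. It asked each member to at least double with PE, to fall with THZ1 added to PE, and to fall with THZ1 alone. These shares and sums are therefore a description.

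A few genes made up most of that share, since the 5 most read members held between 53.8% and 60.2% of the members' reads in each library. The most read one had normalized counts of 267148, 334907 and 281396 at baseline, 705339, 659289 and 654185 with PE, 173955, 186904 and 202652 with PE + THZ1, and 152866, 151027 and 155167 with THZ1 alone. Its libraries did not overlap between any of the 4 groups. Its ratios were 2.29 for PE/baseline, 0.279 for PE + THZ1/PE, 0.52 for THZ1 alone/baseline and 0.638 for PE + THZ1/baseline, each close to the median of the members. Without this gene the other 136 held 1.57% of the reads at baseline, 3.86% with PE, 1.05% with PE + THZ1 and 0.728% with THZ1 alone, in the same order, much of which the rule also sets for them.

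**Figure D2:**
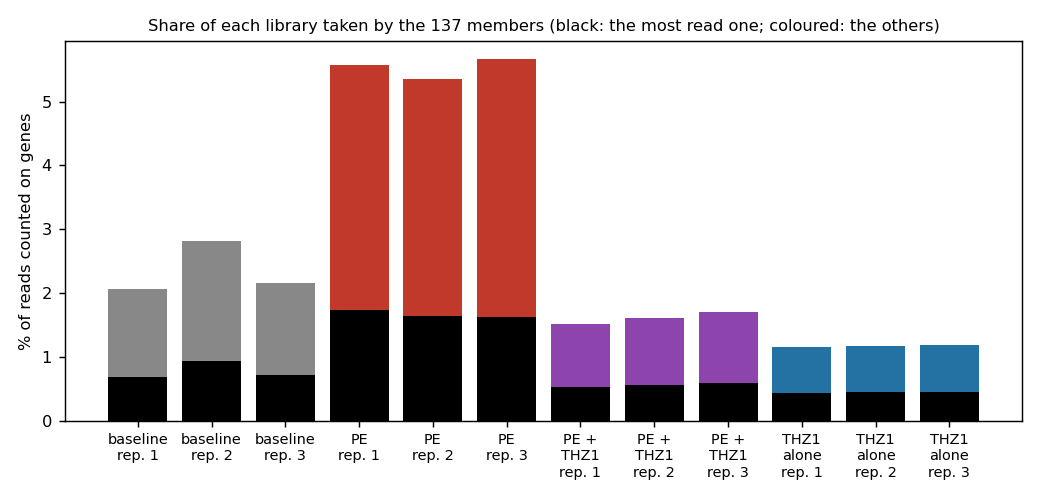
Bars give the percentage of each library's gene-counted reads that fell on the 137 members, with the most read member in black and the other 136 in the colour of the group. The PE libraries lie between 5.36% and 5.66%, and the PE + THZ1 libraries, at 1.52% to 1.70%, lie below the lowest baseline library at 2.07%.

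The read number of the members differed widely, from a mean of 52.5 to 327000 normalized counts, and the median of 920 was close to the 880 of all genes with a mean of at least 50. There were 21 members with a mean under 100, 49 between 100 and 1000, 49 between 1000 and 10000 and 18 above that. The median PE/baseline ratio was 2.76, 3.05, 2.34 and 2.37 in these 4 classes of rising read number, and the median PE + THZ1/PE ratio was 0.192, 0.234, 0.318 and 0.227. Neither ratio changed steadily over the classes. The 18 members of the top class all lay below their baseline mean with PE + THZ1, at ratios of 0.252 to 0.962, whereas the class between 100 and 1000 held both the lowest ratio, 0.131, and the highest, 2.02.

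The depth of the fall at rest and the depth of the fall with PE went together across the members. Pearson's r between the log2 THZ1 alone/baseline and log2 PE + THZ1/PE ratios was 0.838 and Spearman's rho 0.805 over the 137 genes, against 0.762 and 0.676 over all 12148 genes with a mean of at least 50. These ratios share no library, but genes are not independent replicates and the range of the members is bounded by the selection, so the values are a description. Among the 17 members at or below 0.25 of baseline with THZ1 alone, the median PE + THZ1/PE ratio was 0.0828, against 0.212 for the 60 members between 0.25 and 0.5 and 0.332 for the 60 members above 0.5. The members that fell furthest at rest had also risen most with PE, with median PE/baseline ratios of 3.54, 2.56 and 2.37 in these 3 classes. The PE/baseline and THZ1 alone/baseline ratios share the baseline libraries.

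The fall was deeper in the presence of PE for nearly all members. The ratio of the fall with PE to the fall at rest, (PE + THZ1/PE)/(THZ1 alone/baseline), had a median of 0.59 (quartiles 0.488 and 0.671, range 0.18 to 1.03) and was below 1 in 135 of 137. Over all genes with a mean of at least 50 this ratio had a median of 0.978 and was below 1 in 54.7%. Among other genes raised by PE, it was below 1 in 63 of the 73 that kept more than 0.5 of the PE level with THZ1. The median of these 73 was 0.707. Another 21 genes met the other limits but had a THZ1 alone/baseline ratio above 0.75. Their median was 0.479, but their limits alone force the ratio below 1, so they show nothing further. The corresponding interaction of PE and THZ1 was called in this direction for 115 members and in the other for none, with 22 not called, against 16.8% of the genes tested in this direction and 13% in the other. The fitted median was -0.77 on the log2 scale, and the standard error of a member was 0.15 in the median (0.07 to 0.48). The rule used all 4 groups that enter this ratio. Genes chosen for a high PE level tend to a ratio below 1, because PE is in its denominator. The limit on THZ1 alone/baseline acts the other way, since it asks for a small denominator. Nothing is therefore read from these counts.

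**Figure D3:**
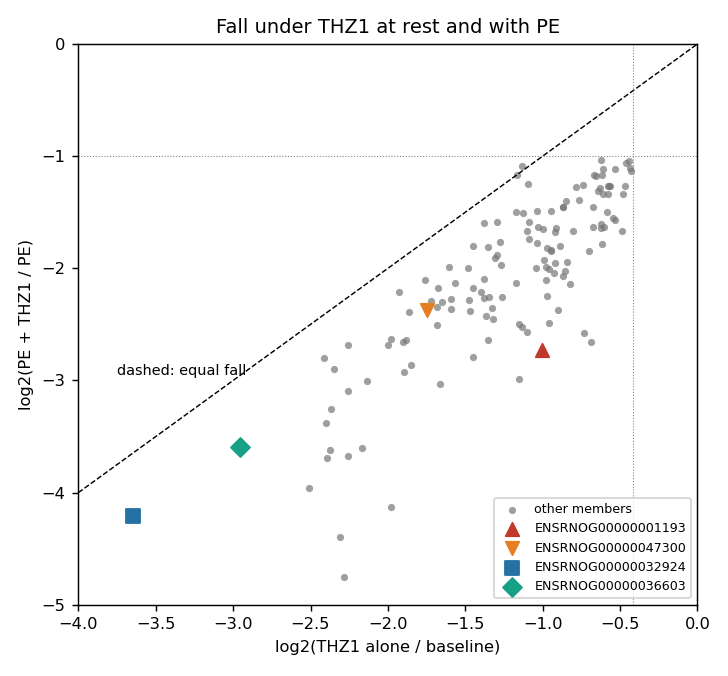
Each point is a member, with the log2 ratio of THZ1 alone to baseline on the x axis and that of PE + THZ1 to PE on the y axis. Dotted lines mark the limits of the rule and the dashed line marks an equal fall, and 135 of the 137 members lie below the dashed line.

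With PE + THZ1 most members lay below baseline and not at it. The PE + THZ1/baseline ratio had a median of 0.675 (quartiles 0.538 and 0.872, range 0.131 to 2.02), with 122 members below 1 and 15 above. Over all genes with a mean of at least 50 this median was 1.0. The rule bounds this ratio only loosely, but it is the product of a pair of ratios that the rule used. In 90 members every PE + THZ1 library lay below every baseline library (27.4% of the genes tested), in 7 every one lay above (27.4%), and in 40 the groups overlapped. By limma 93 members were lower than baseline (25.8% of the genes tested), 8 were higher (25.3%) and 36 were not called. Without baseline replicate 2, PE + THZ1 lay below both other baseline libraries in 91 members (34.8% of the genes tested) and above both in 13 (34.7%), with 114 group means below baseline and 23 above. Without PE + THZ1 replicate 3 the counts were 108 below (31.4% of the genes tested) and 7 above (31.3%), with 125 means below baseline and 12 above. The 8 members called higher by limma became 13 without baseline replicate 2 and 5 without PE + THZ1 replicate 3.

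The 90 members below baseline without overlap had a median PE + THZ1/baseline ratio of 0.582 and a median THZ1 alone/baseline ratio of 0.40. The deepest of them had normalized counts of 918, 1098 and 1017 at baseline, 1970, 1995 and 2227 with PE, 127, 133 and 139 with PE + THZ1, and 174, 184 and 175 with THZ1 alone. In this gene the PE + THZ1 libraries all lay below those of THZ1 alone, at a ratio of 0.747. It was the one member with such a separation, which 22.2% of the genes tested showed. The 7 members above baseline without overlap stood at a median of 1.45 of baseline. Their median rise with PE was 3.18-fold, against 2.41-fold for the 90 members below and 2.57-fold for the 40 that overlapped. The PE/baseline and PE + THZ1/baseline ratios share the baseline libraries, and the difference was not tested. The highest of the 7 had 64.5, 97.2 and 52.3 at baseline, 440, 347 and 426 with PE, 132, 126 and 174 with PE + THZ1, and 28.5, 34.6 and 41.1 with THZ1 alone.

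**Figure D4:**
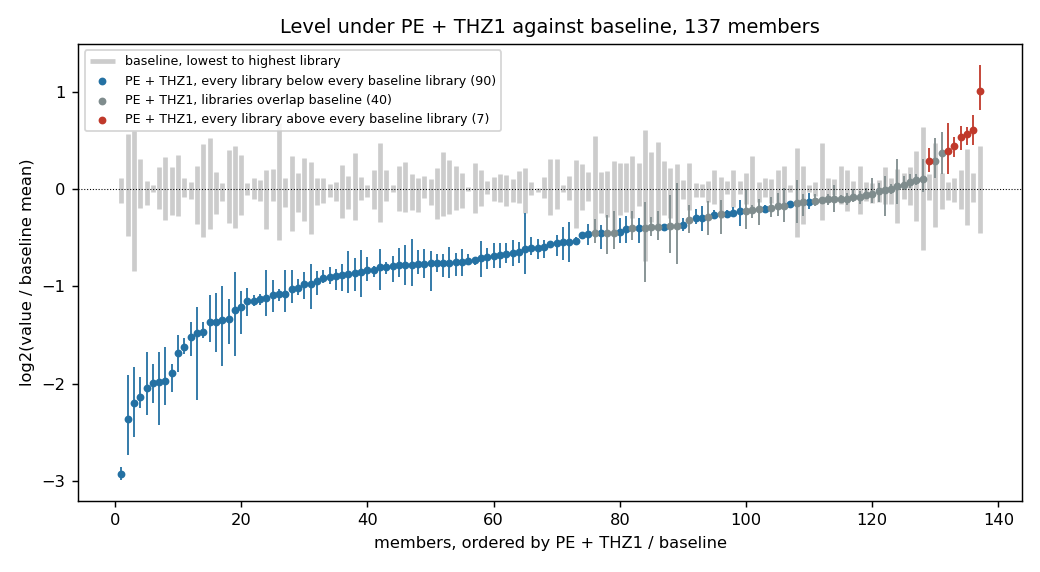
The members are ordered along the x axis by their PE + THZ1/baseline ratio, and the y axis is log2 relative to the baseline mean. Grey bars span the 3 baseline libraries, coloured lines span the 3 PE + THZ1 libraries and points are group means, with 90 members below baseline (blue), 40 overlapping (grey) and 7 above (red).

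With THZ1 present, most members were still higher with PE than without it. The PE + THZ1/THZ1 alone ratio had a median of 1.46 (quartiles 1.27 and 1.84, range 0.747 to 4.98) and was above 1 in 132 members and at least 2 in 27. Of all genes with a mean of at least 50, 47.7% were above 1. The ratio was also above 1 in 71 of the 73 genes that kept more than 0.5 of the PE level, with a median of 1.58. In the 21 genes above the THZ1 alone/baseline limit it was above 1 in 15, with a median of 1.27. The PE + THZ1 libraries all lay above those of THZ1 alone in 112 members, against 21.1% of the genes tested, and limma called 103 higher (11.8% of the genes tested) and 1 lower (10.8%), with 33 not called. Expressed on the log2 scale as a part of the rise that PE gave without THZ1, the remaining rise was 42.1% in the median, with quartiles of 24.5% and 56.7%. It was below 0 in 5 members and above 100% in 2. The group means of 117 members (85.4%) followed the order PE, baseline, PE + THZ1, THZ1 alone from high to low, and in 69 (50.4%) no neighbours in this order overlapped, against 11.6% and 2.93% of the genes tested. The rule already put PE above baseline and above PE + THZ1, and baseline above THZ1 alone. It left only the place of PE + THZ1 relative to baseline and THZ1 alone unset, so nothing is read from the higher shares.

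By the rule for naming, the members with the largest PE/baseline ratio and those with the lowest THZ1 alone/baseline ratio are given by identifier, since symbols could not be assigned. ENSRNOG00000001193 had normalized counts of 31.2, 56.8 and 34.3 at baseline, 340, 320 and 330 with PE, 44.3, 58.7 and 46.7 with PE + THZ1, and 17.1, 23.3 and 20.6 with THZ1 alone. It rose 8.09-fold with PE, fell to 0.151 of the PE level with THZ1 added, and then overlapped baseline. Its fitted log2 changes were 3.04 ± 0.19 for PE against baseline, -2.71 ± 0.19 for PE + THZ1 against PE and -0.93 ± 0.19 for THZ1 alone against baseline (SE). The SE rests on a single spread estimated over all 12 libraries, so it does not measure the spread of the groups compared. The baseline libraries of this gene had an SD of 14, against 9.81 with PE at a far higher mean. ENSRNOG00000047300 had 44.1, 66.6 and 38.6 at baseline, 356, 357 and 433 with PE, 77.8, 68.3 and 75.1 with PE + THZ1, and 20.5, 10.5 and 13.4 with THZ1 alone. It was 4.98-fold higher with PE + THZ1 than with THZ1 alone, the highest such ratio of the members, and all of its PE + THZ1 libraries lay above all of its baseline libraries. Baseline replicate 2 was the highest baseline library of both genes, and without it their log2 PE/baseline ratios were 3.33 and 3.21, against 3.02 and 2.94 with all libraries.

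ENSRNOG00000032924 had normalized counts of 151, 310 and 167 at baseline, 657, 773 and 822 with PE, 31.5, 34.6 and 55.8 with PE + THZ1, and 16, 12.8 and 21.5 with THZ1 alone. It had the lowest THZ1 alone/baseline ratio of the members, 0.0799, and its PE + THZ1 libraries all lay below baseline although PE alone raised it 3.59-fold. Its baseline replicate 2, at 310, was far above the other baseline libraries, and without it the log2 THZ1 alone/baseline ratio was -3.25, against -3.65 with all libraries. ENSRNOG00000036603 had 601, 702 and 714 at baseline, 1753, 2155 and 2006 with PE, 134, 144 and 211 with PE + THZ1, and 93.4, 78.9 and 87.6 with THZ1 alone. Its baseline libraries were closer together, and it stood at 0.129 of baseline under THZ1 alone and at 0.243 in PE + THZ1. The libraries of this gene did not overlap between any of the 4 groups.

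**Figure D5:**
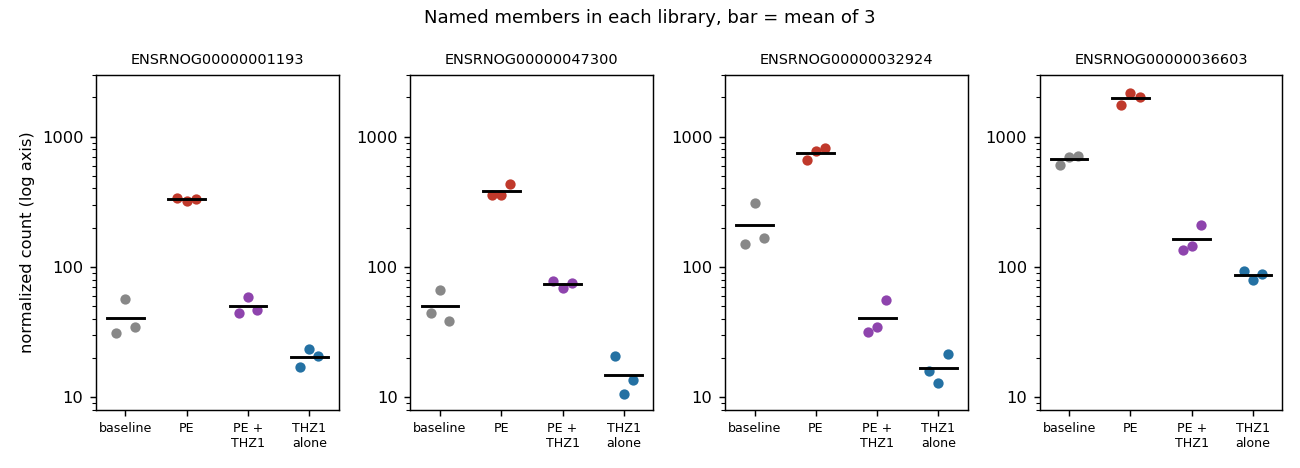
Points are the normalized counts of the 4 named members in each library on a log axis, and black bars are group means of 3 libraries. ENSRNOG00000001193 and ENSRNOG00000047300 reach 320 or more with PE from baseline means of 40.8 and 49.8, while ENSRNOG00000032924 and ENSRNOG00000036603 fall to means of 16.7 and 86.7 with THZ1 alone.

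The gene with the lowest PE + THZ1/PE ratio, 0.037, was one of few reads. It had 16.1, 43.7 and 26.6 normalized counts at baseline, 161, 159 and 188 with PE, 4.92, 5.77 and 8.12 with PE + THZ1, and 3.42, 4.51 and 9.84 with THZ1 alone. Its PE + THZ1 and THZ1 alone libraries overlapped. Over all members the lowest number of reads in a library was 5 in the PE + THZ1 group and 3 in the THZ1 alone group, against 88 with PE, so that ratios of the least read members rest on few reads.

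The other genes raised by PE differed from the members in what the rule asked of them under THZ1. Another 21 genes were raised by PE and lowered by THZ1 with PE to the same limits but had a THZ1 alone/baseline ratio above 0.75. That ratio had a median of 0.842 in these genes and was below 1 in 18 of the 21, so a smaller fall at rest was common there too. Their median rise with PE was 2.46-fold, close to the 2.49-fold of the members, while their PE + THZ1/PE ratio was 0.399 in the median and their PE + THZ1/baseline ratio 1.06, with 9 genes below 1 and 12 above. A further 73 genes were raised at least 2-fold by PE but kept more than 0.5 of that level with THZ1. Their median THZ1 alone/baseline ratio was 0.946 and their median PE + THZ1/baseline ratio 1.63. No difference between these sets was tested, because the limits that separate them use the same libraries.

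The limits passed through a continuous range of values. The members nearest the PE/baseline limit had ratios of 2.001, 2.001 and 2.008, and the nearest genes that met all else had 1.996, 1.992 and 1.991, with 427 genes below that limit in all. At the PE + THZ1/PE limit the nearest members had 0.4896, 0.4867 and 0.48 and the nearest of the 10 genes outside had 0.5007, 0.5329 and 0.5442. At the THZ1 alone/baseline limit the nearest members had 0.742, 0.7386 and 0.7369 and the nearest of the 21 genes outside had 0.7617, 0.7708 and 0.7818. All 137 members belonged to 1 of the 6 clusters that the authors assigned, which held 3740 genes (23.5% of the table) and was made from the same libraries. The deposited column numbers this cluster 2. The paper describes its own cluster 2 as genes lowered by PE, a fall that THZ1 attenuated, so the numberings differ.

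To read the ratios in libraries that had no part in the choice, the rule was applied to the libraries of 2 replicate numbers and the chosen genes were examined in the 4 libraries of the remaining number. With number 1 held out, 130 genes were chosen, of which 112 (86.2%) met all 3 ratio limits in the held-out libraries, against 1.24% of all genes with a mean of at least 50. With number 3 held out, 106 of 125 (84.8%) met them, against 1.26%. With number 2 held out, 87 of 150 (58.0%) met them, against 0.914%. The lower share with number 2 came at the PE/baseline limit, which 88 of the 150 genes (58.7%) reached there. The PE + THZ1/PE limit was met by 145 (96.7%) and the THZ1 alone/baseline limit by all 150. Both ratios over baseline were read there against baseline replicate 2 alone, the highest baseline library for 108 members. A high baseline library lowers both ratios. How far this set their shares was not tested, so nothing further is read from the 150 of 150.

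Direction was kept more fully than size in the held-out libraries. All chosen genes had a PE/baseline ratio above 1 and a PE + THZ1/PE ratio below 1 in each of the 3 held-out sets. The THZ1 alone/baseline ratio was below 1 in 128 of 130, 150 of 150 and 125 of 125 genes. The median PE/baseline ratio in the held-out libraries was 2.84, 2.12 and 2.80 for numbers 1, 2 and 3, the median PE + THZ1/PE ratio 0.236, 0.267 and 0.266, and the median THZ1 alone/baseline ratio 0.483, 0.401 and 0.485. For number 2, both ratios over baseline again rest on baseline replicate 2 alone. No test was made, because the replicate numbers are only names and the held-out libraries of a group share whatever the group shares.

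The values depend on the authors' scaling, which centres the bulk of the genes. If every library was instead scaled to the same total, the median log2 change of all genes tested was 0.266 for PE + THZ1 against PE, 0.149 for THZ1 alone against baseline and -0.074 for PE against baseline, in place of medians within 0.015 of 0. The medians of the members, 1.32, -1.99 and -1.10 for PE/baseline, PE + THZ1/PE and THZ1 alone/baseline as deposited, were then 1.22, -1.73 and -0.95, moving in each case the same way as the median of all genes, and 106 in place of 122 members lay below baseline with PE + THZ1. No member changed direction under this scaling in the PE/baseline ratio or in the PE + THZ1/PE ratio, and 101 genes, all of them members, met the rule. Every scaling used is relative to the other genes of a library. A change in total mRNA per cell would therefore not show, and rises and falls hold relative to the other genes.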

How the data were processed

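RNA was measured in 12 NRVM libraries, 3 in each of 4 groups taken from the sample labels. Per the labels and the methods of the study, the authors aligned reads to rn5 with TopHat2 2.1.1, counted them on genes with HTSeq on the reverse strand and normalized all rat samples in a single DESeq2 run. What was deposited is a nonnegative signal per gene, the read count divided by the library's size factor (normalized count), and a further column holds the cluster the authors assigned to each gene. Every value was a whole multiple of what 1 read is worth in its library (100% within 0.01 of a read), which gave back the reads per gene. Intervals from these reads would cover counting error only, and none are given.

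Members were found by group means of the deposited values. limma 3.58.1 in R 4.3.3 was fitted to log2(normalized count + 1) of all 12 libraries, for the 15222 genes with a mean of at least 5, with a trended and robust prior variance, two-sided, with Benjamini-Hochberg adjustment over all genes tested and a threshold of 0.05. A fold change on this scale understates the change of low genes. Standard errors from this fit rest on a single spread of each gene over all 12 libraries, not on that of the groups compared. limma called 7931 genes for PE against baseline, 8922 for PE + THZ1 against PE, 7441 for THZ1 alone against baseline, 7775 for PE + THZ1 against baseline, 3441 for PE + THZ1 against THZ1 alone and 4547 for the interaction. The fit was also tested on simulated reads of 15222 genes. For PE against baseline, 75, 63 and 62 genes were changed by 0.5, 1 and 2 on the log2 scale, far fewer than were called in the data. The fit recovered 66.7%, 88.9% and 98.4% of them, with 13 false calls among the unchanged genes. For THZ1 alone against baseline, where no gene was changed, it made 0 calls. The simulated libraries were independent, with the same dispersion of a gene in every group. In the data the median coefficient of variation of genes with a mean of at least 50 was 7.07% at baseline and 3.91% with THZ1 alone, and some libraries stood apart. The simulation therefore does not give the error rate in the data.

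Alternatives were edgeR 4.0.16 and DESeq2 1.42.0 on the recovered reads, other pseudocounts, minimum means and scalings, the replicate number as a block, a fit of the compared groups alone, and each library left out in turn. Medians over the members under other scalings, and the counts without baseline replicate 2 or PE + THZ1 replicate 3, were added after seeing the data. The members and the gene lists were chosen with earlier results of these data known. The lists, the marker check, gene lengths and promoter sequences were not used, because 0 identifiers matched the 47357 entries of the annotation. Genes were to be named as the members with the largest PE/baseline ratio, the highest mean, and the lowest THZ1 alone/baseline and extreme PE + THZ1/baseline ratios; without symbols this was limited to 2 identifiers for the rise and 2 for the fall. Python 3.11.15 with numpy 2.4.6, pandas 2.3.3 and matplotlib 3.10.9 was used for tables and plots.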

Additional observations from a re-analysis of the deposited data

Results flagged for a closer look

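The interaction of PE and THZ1 in the limma fit across all genes was called in the direction of a deeper fall with PE for 115 of the 137 members, beside 16.8% of all genes tested. With all libraries scaled to the same total it was 100 members, beside 6.9% of the genes tested. The limits that chose the members act on the same 4 groups. Those on PE/baseline and PE + THZ1/PE favour this direction and that on THZ1 alone/baseline acts against it, so neither count is a test of a difference.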

How the results depend on the processing

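The number of genes that met the rule was 137 and ran from 101 with equal library totals to 163 with a minimum mean of 20, and from 125 (without baseline replicate 1 or PE replicate 3) to 150 (without baseline replicate 2) when one library was left out. Leaving out one library gave 6953 to 8756 calls for PE over baseline. For PE + THZ1 it gave 8043 to 9537 calls against PE, then, for THZ1 alone over baseline, 6396 to 8141. PE + THZ1 gave 6761 to 8501 calls relative to baseline and 2537 to 4413 relative to THZ1 alone, and the interaction 3714 to 6119. The highest count of each came without baseline replicate 2. Equal library totals moved the share of higher calls from 54.4%, 49.7%, 49.7%, 49.4%, 52.3% and 43.7% to 37.2%, 77.4%, 72.6%, 74.4%, 58.7% and 73.5% in these 6 comparisons. They called 137 members higher with PE than at baseline (18.4% of the genes tested), 137 lower with PE + THZ1 than with PE (15%) and 132 lower with THZ1 alone than at baseline (14.8%). PE + THZ1 gave 75 members lower (14.4%) and 11 higher (41.8%) than baseline and 101 higher than THZ1 alone (11.1%). They also moved the members' median PE + THZ1/PE ratio to -1.73 and that of ENSRNOG00000001193 to -2.47 and ENSRNOG00000047300 to -2.12 (log2) by more than the spread between replicates. The held-out libraries of numbers 1, 2 and 3 then met all 3 limits for 86.0%, 49.5% and 83.3% of the chosen genes. edgeR called 7950, 8897, 7625, 7867, 3494 and 4596 genes, and DESeq2 7371, 8349, 7063, 7310, 3269 and 4266. A limma fit of the compared groups alone, which has no interaction, called 6932, 9491, 6593, 6914 and 4724 genes. The last of these, for PE + THZ1 against THZ1 alone, compares with 3441 in the main fit. Each of these counts was within 1.5 times that of the main limma fit.

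Libraries of the same replicate number deviated together weakly at most. The mean correlation of their deviations from the group means was 0.0301 over 18 pairs (-0.0644 to 0.116), against -0.0152 over 36 pairs of different numbers, and 6 of 12 libraries correlated best with their own number. With the replicate number as a block, the counts were 8129, 9038, 7647, 7961, 3623 and 4838 genes, each somewhat higher than without the block. Depth limits mainly the least read members, the lowest of which had 3 reads in a THZ1 alone library.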
